A study of Mus musculus with 6 samples.

Results

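The genes described here code for proteases of the lysosome and for inhibitors of such proteases. They are the cathepsins *Ctsb*, *Ctsl*, *Ctss*, *Ctsz*, *Ctsh*, *Ctsc* and *Ctsd*, the asparaginyl endopeptidase *Lgmn*, and the inhibitors *Cst3* and *Ctla2a*. They were chosen by name, as 10 of the 16557 genes listed in the count tables of 6 mouse rhabdoid tumors, and each of them is listed in all 6 tables. Rhabdoid tumors arise after loss of *Smarcb1*, whose protein belongs to the SWI/SNF complex that moves nucleosomes. All 6 mice carried loxP-flanked *Smarcb1* (Smarcb1 fl/fl) and a tamoxifen-inducible Cre recombinase (creERT2), and received 50 mg/kg tamoxifen at day 6.5 post coitum. The 3 MYC spinal tumors came from the Rosa26-cre strain, in which Cre is active in nearly all cell types, and were taken at 19 weeks (mouse Rosini1172), 26 weeks (mouse Rosini1177) and 17 weeks (mouse Rosini1232). Of the 3 extracranial rhabdoid tumors (eRT), the one at a gland (mouse Rosini1148, 17 weeks by its label, an age on which the sources used here differ) was also from Rosa26-cre, whereas those of the jaw (mouse Soxertini568_maxilar, 29 weeks) and the shoulder (mouse Soxertini593, 22 weeks) were from Sox2-cre, in which Cre follows the promoter of a gene of early progenitor cells. Subtype and mouse model are therefore partly confounded. No tissue without tamoxifen was compared.

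Lysosomal proteases are made as inactive precursors, carried to the acidic lysosome by sorting receptors, and activated there by cleavage. They degrade proteins taken up from outside or delivered by autophagy, and in antigen-presenting cells some of them trim the invariant chain and antigens for MHC class II. Macrophages take up dead cells and matrix and are known for abundant lysosomes, and tumor-associated macrophages can secrete cathepsins. Cystatins and related proteins occupy the active site of cysteine cathepsins and limit their action.

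Single cells were captured with droplet-based 3′ chemistry, and transcripts were counted by unique molecular identifiers (UMIs). After filtering, 22163 of 22681 cells were used, with 3841706 to 26184224 UMIs per tumor. Cells were clustered within each subtype with the 10 genes left out, and clusters were named from marker genes, so that "macrophage-like" stands for clusters led by macrophage markers. Tumor clusters were taken by their loss of *Smarcb1*, which stood at 0, 0 and 2.61 counts per 1000000 UMIs (CPM) in the tumor cells of Rosini1172, Rosini1177 and Rosini1232, and at 6.38, 3.17 and 2.07 CPM in those of Rosini1148, Soxertini568_maxilar and Soxertini593, against 38.1 to 75.2 CPM in the macrophage-like cells of the 6 tumors. UMIs were summed per tumor and kind of cell wherever a tumor had 10 cells or more of a kind, and each tumor counted as 1 replicate. The sums held 16 to 1641 tumor cells and 79 to 2620 macrophage-like cells. Cells are only numbered in the files, so that barcodes shared between libraries could not be counted.

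Certain libraries stood apart before any comparison. The macrophage-like cells of MYC spinal Rosini1172 carried all 6 microglia markers at a summed 1637 CPM, against 57.1 to 888 CPM in the other tumors, and held 1378 CPM of *Cst7*, the cystatin F gene, against at most 32.4 CPM in those of the other tumors. The 16 tumor cells of MYC spinal Rosini1177 gave 45451 UMIs in all, so that 3 UMIs correspond to 66.0 CPM, and they held 7 of 12 neutrophil markers at a summed 17250 CPM. The macrophage-like cells of Rosini1177 held neutrophil markers at a summed 6682 CPM and macrophage markers at 7234 CPM. In the macrophage-like cells of the other tumors neutrophil markers summed to 84.1 to 1801 CPM. Of the 69 tumor cells of eRT Rosini1148, 37 lay in a cluster led by *Prg4*, *Cldn4*, *Cldn3* and *Epcam*. Those held 391 CPM of *Ctsb* and 574 CPM of *Ctsl*, against 1154 and 470.5 CPM in 22 tumor cells of another cluster. In eRT Soxertini568_maxilar, erythroid markers summed to 2845, 10970 and 7182 CPM in macrophage-like, monocyte-like and neutrophil-like cells. The same kinds of cells of the other tumors held at most 140.5 CPM of them. Where a call or a sign turned on leaving out a library, the value without it stands beside the result or in the account of the processing.

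**Figure D1:**
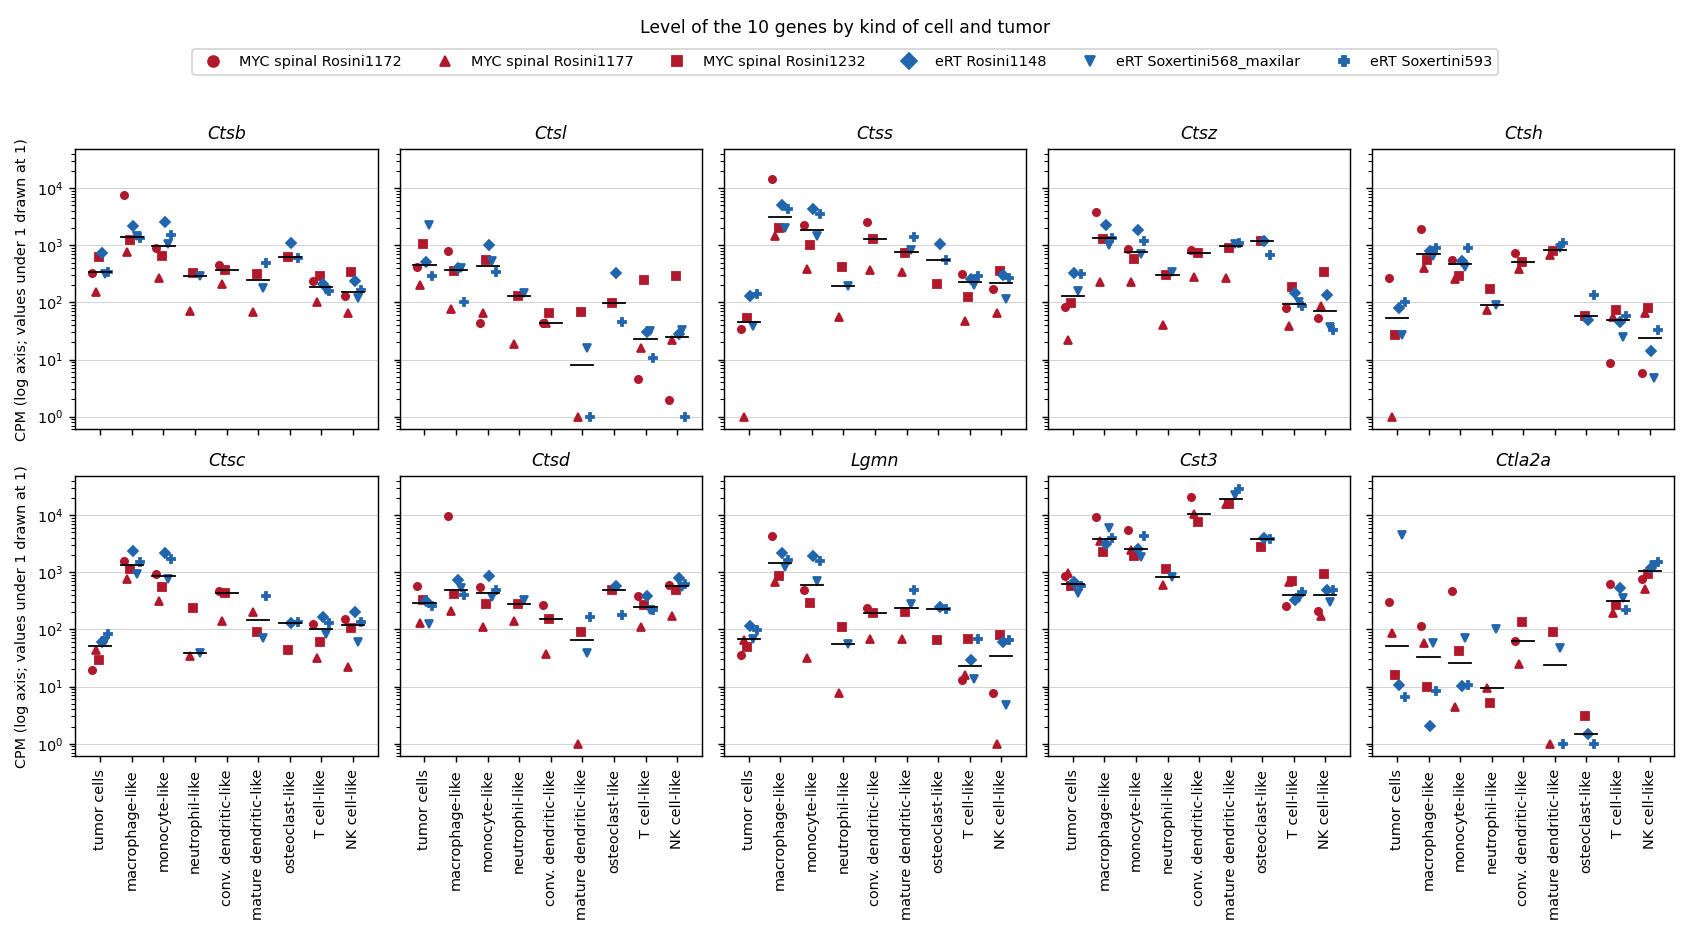
Level of each gene in CPM (log axis, values under 1 drawn at 1) in 9 kinds of cells, with a point for each tumor and a bar at the median over tumors. *Ctss*, *Ctsc* and *Lgmn* have their highest medians in macrophage-like cells (3143, 1342 and 1442 CPM), *Cst3* in mature dendritic-like cells (18930 CPM) and *Ctla2a* in NK cell-like cells (1056 CPM).

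The first comparison asked in which cells of a tumor each gene is transcribed, by setting tumor cells against macrophage-like cells of the same animal. Of the 10 genes, 8 were lower in tumor cells and none was higher by edgeR's quasi-likelihood test with the tumor as a block. Over all 8208 genes tested, 38.4% passed in either direction and 19.6% were lower in tumor cells. The median log2 difference was -3.19 over the 10 genes and 0.06 over all genes tested. The plot of levels by kind of cell and the plot of differences within tumors show these values tumor by tumor. Differences are log2 fold changes with their standard error, and an adjusted p refers to edgeR with Benjamini-Hochberg adjustment over all genes tested.

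Among the cysteine endopeptidases, *Ctss* codes for cathepsin S, which cleaves the invariant chain in antigen-presenting cells. In macrophage-like cells its level was 14250, 1428 and 2010 CPM in MYC spinal Rosini1172, Rosini1177 and Rosini1232, and 5046, 2021 and 4264 CPM in eRT Rosini1148, Soxertini568_maxilar and Soxertini593. In tumor cells it was 34.1, 0 and 52.4 CPM and 128, 38.0 and 140 CPM in the same order, where the 0 of mouse Rosini1177 allows up to 66.0 CPM. No tumor cell value reached any macrophage-like value. The difference was -6.10 ± 0.61 (adjusted p = 2.2e-05), lower in 6 of 6 tumors.

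*Ctsb*, which codes for cathepsin B, a protease with both endopeptidase and carboxypeptidase activity, stood at 321, 154 and 633 CPM in the MYC spinal group and at 721, 314 and 348 CPM in eRT tumor cells. Its macrophage-like values were 7546, 762, 1219, 2213, 1482 and 1337 CPM in the same order of mice. The groups of values did not overlap, and the gap in Rosini1172 exceeded those of the other tumors. The difference was -2.39 ± 0.47 (adjusted p = 0.0022).

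*Ctsl*, the gene of cathepsin L, an endopeptidase that also degrades matrix proteins when secreted, departed from the other cathepsins. Tumor cells held 420, 198 and 1045 CPM in the MYC spinal group and 502, 2303 and 295 CPM in eRT. Macrophage-like cells held 804, 76.2 and 350 CPM and 400, 396 and 102 CPM. The tumor cell value was above the macrophage-like value in 5 of 6 tumors and below it in Rosini1172, and the ranges overlapped. The difference was 0.86 ± 0.50 with an interval of -0.14 to 1.87 (adjusted p = 0.21). Without Rosini1172 it was 1.34 and passed the threshold (adjusted p = 0.011).

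The 3 exopeptidases were all lower in tumor cells, in 6 of 6 tumors each. *Ctsz* codes for cathepsin Z, a carboxypeptidase. It ranged from 22.0 to 330 CPM with a median of 129 in tumor cells and from 228 to 3885 CPM with a median of 1317 in macrophage-like cells, a difference of -3.48 ± 0.51 (adjusted p = 0.00029). *Ctsh*, the gene of the aminopeptidase cathepsin H, ranged from 0 to 271 CPM with a median of 54.0 against 400 to 1897 CPM with a median of 719, a difference of -3.94 ± 0.32 (adjusted p = 6.5e-06). The tumor cells of Rosini1172 lay apart from the other tumors here, with 151 UMIs of *Ctsh* or 271 CPM, where the others had at most 100 CPM. *Ctsc* codes for cathepsin C, the dipeptidyl peptidase that activates serine proteases of granules. It ranged from 19.7 to 84.4 CPM with a median of 51.8 against 762 to 2341 CPM with a median of 1342, and the difference was -5.11 ± 0.44 (adjusted p = 8.3e-06).

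The aspartic protease gene *Ctsd*, which codes for cathepsin D, showed the smallest of the called differences. Tumor cells held 573, 132 and 332 CPM in the MYC spinal group and 319, 124 and 262 CPM in eRT, and macrophage-like cells 9766, 209 and 425 CPM and 722, 540 and 401 CPM. The tumor cell value was the lower in each of the 6 tumors, although the ranges overlapped between tumors. The difference was -1.67 ± 0.51 (adjusted p = 0.025), and it missed the threshold without Soxertini568_maxilar (adjusted p = 0.062) or without Rosini1148 (adjusted p = 0.058).

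*Lgmn*, which codes for legumain, the protease that cuts after asparagine and processes other cathepsins, was at 35.9, 66.0 and 49.0 CPM in the MYC spinal group and 117, 68.1 and 99.6 CPM in eRT tumor cells. In macrophage-like cells it was at 4328, 666 and 856 CPM and 2141, 1246 and 1637 CPM. The ranges were apart, and the difference was -4.67 ± 0.49 (adjusted p = 3.0e-05).

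Of the inhibitors, *Cst3* codes for cystatin C, a secreted inhibitor of cysteine cathepsins. Its tumor cell levels varied little between tumors, at 849, 990 and 589 CPM in the MYC spinal group and 683, 431 and 580 CPM in eRT. The macrophage-like levels were 9361, 3579 and 2298 CPM and 3095, 5979 and 3970 CPM, all above those of tumor cells. The difference was -2.90 ± 0.33 (adjusted p = 4.6e-05).

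*Ctla2a* codes for a small protein related to the propeptide of cathepsins that inhibits cathepsin L-type enzymes. In tumor cells it was at 298, 88.0 and 16.1 CPM in the MYC spinal group and at 10.6, 4505 and 6.55 CPM in eRT, so that mouse Soxertini568_maxilar exceeded every other tumor. In macrophage-like cells it was at 114, 57.1 and 9.92 CPM and 2.03, 57.6 and 8.46 CPM. The difference was 1.35 ± 0.84 (adjusted p = 0.24), with 5 of 6 tumors higher in tumor cells. Reads of *Ctla2a* may be shared with its close paralog *Ctla2b*, and annotated genes that span both overlap it on the same strand, so its counts are uncertain. *Ctsd* also overlaps an annotated coding gene on its strand, and *Ctsl* and *Ctss* each a processed pseudogene, so reads could be shared there as well.

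**Figure D2:**
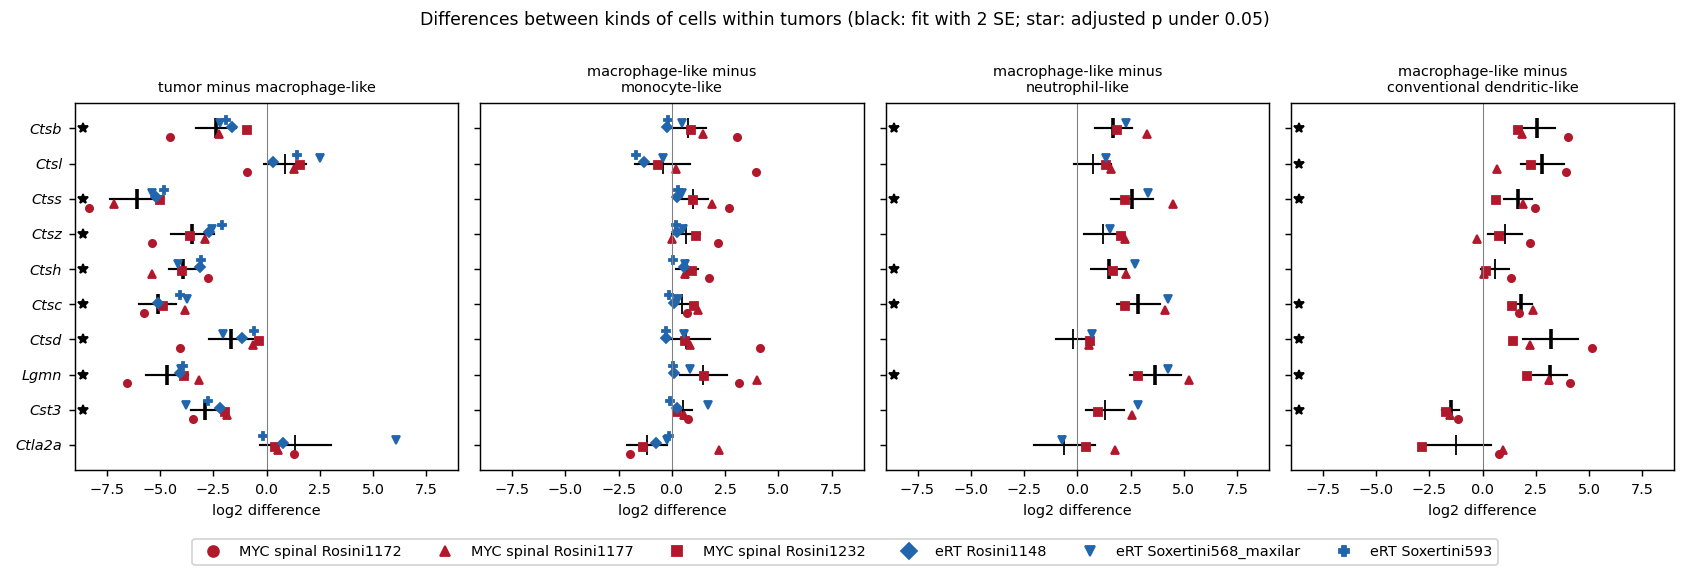
Differences between kinds of cells of the same tumor, as log2(CPM + 10) of the first kind minus that of the second, with a colored point for each tumor. Black marks are the fitted log2 fold change with 2 standard errors and a star marks an adjusted p under 0.05: 8, 0, 5 and 7 genes from left to right.

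The tumor cell values were set beside those of *C1qa*, *C1qb* and *C1qc*, the subunits of complement C1q that macrophages make. Summed, they stood in tumor cells at 0.284%, 0% and 1.91% of their macrophage-like level in Rosini1172, Rosini1177 and Rosini1232, and at 2.20%, 2.30% and 3.62% in Rosini1148, Soxertini568_maxilar and Soxertini593. *Ctss* was within 2 times the C1q percentage in 5 of the 5 tumors with C1q UMIs, at 0.239% to 3.27% of its own macrophage-like level. C1q does not follow RNA of other kinds of cells that hold *Ctss*, and the source of these UMIs was not tested. *Ctsc* was within 2 times that percentage in 3 of 5 tumors, and *Lgmn* and *Ctsh* in 1 of 5 each. *Ctsb*, *Ctsz*, *Ctsd*, *Cst3* and *Ctsl* exceeded it by over 2 times in 5 of 5 tumors. The span was 4.26% to 51.9% for *Ctsb*, 5.86% to 78.1% for *Ctsd* and 52.2% to 581% for *Ctsl*.

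**Figure D3:**
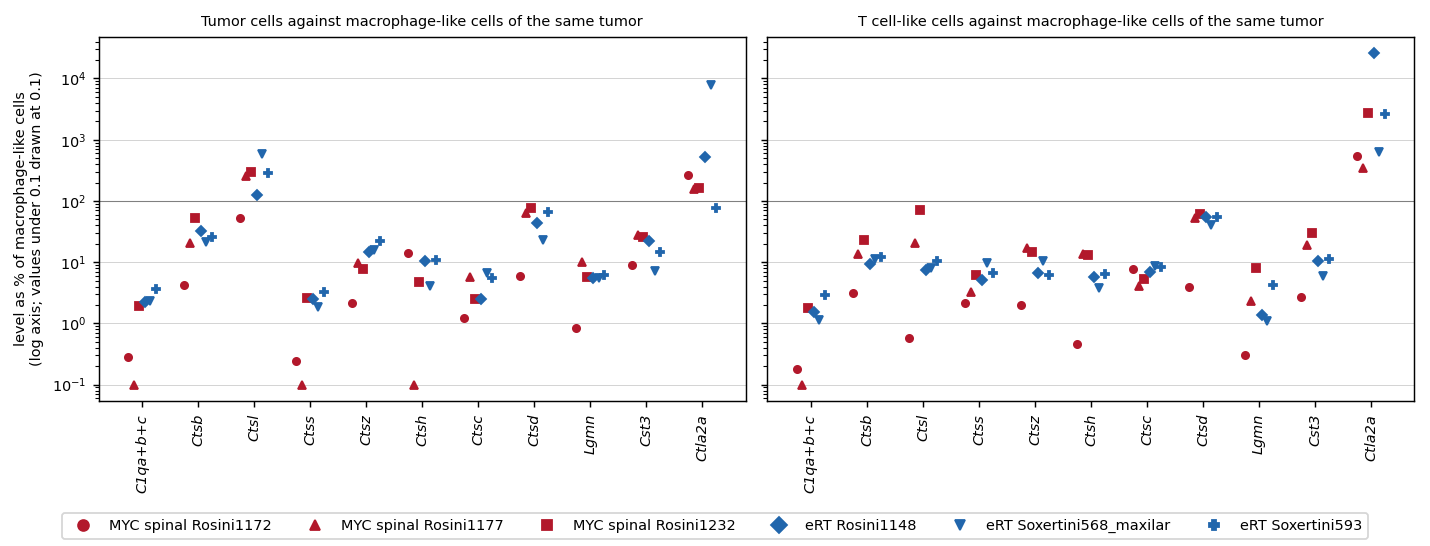
Level of each gene in tumor cells (left) and T cell-like cells (right) as a percentage of that in macrophage-like cells of the same tumor, on a log axis, with values under 0.1 drawn at 0.1 and summed C1q genes at the far left. *Ctss* lies at the level of C1q in tumor cells, and *Ctsl* lies at 52.2% to 581%.

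T cell-like cells were measured in the same way. They held *Ctss* at 2.19% to 9.81% of its macrophage-like level, and this was over 2 times their own C1q percentage in 5 of 5 tumors, as it was for the other genes except *Lgmn* (1 of 5). There *Ctsl* was at 4.65, 15.7 and 248 CPM in the MYC spinal group and at 29.8, 31.9 and 10.6 CPM in eRT, so that each tumor's T cell-like value lay below its tumor cell value. After thinning of each cell to 1000 UMIs, 32.0% ± 13.2 (SD, n = 6) of tumor cells and 2.07% ± 3.86 of T cell-like cells held a UMI of *Ctsl*. Without thinning these shares were 64.7% and 4.68%, at median depths of 2085 to 5970 UMIs per tumor cell and 504.5 to 1963 per T cell-like cell. In Rosini1177, thinning left 13 of 16 tumor cells and 20 of 200 T cell-like cells, and in Soxertini568_maxilar it left 184 of 204 and 291 of 475.

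Within tumor cells, both *Ctsl* and *Ctla2a* were unevenly spread over clusters, which had been drawn without them. In eRT Soxertini568_maxilar, 144 tumor cells of a cluster led by *Npy*, *Mfap4* and *Gap43* held 4114 CPM of *Ctsl* and 9321 CPM of *Ctla2a*, whereas 58 cells of a cluster led by *C1qtnf3* and *Meg3* held 904 and 765 CPM. The 52 cells of the *Npy* cluster that came from eRT Soxertini593 held 164 CPM of *Ctsl* and 7.14 CPM of *Ctla2a*. High levels of both were therefore seen in one tumor and not throughout the cluster. In MYC spinal Rosini1232, *Ctsl* was at 6825 CPM in 95 cells of a cluster led by *Bex1* and *Stmn2*, at 2229 CPM in 176 cells of a cluster led by *S100a6* and *Crabp1*, and at 472 CPM in 1370 cells of the main cluster. *Ctla2a* was at 1.53, 5.11 and 18.0 CPM in the same clusters, so the order was not shared. These are single values per tumor and cluster, with no replicate check.

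**Figure D4:**
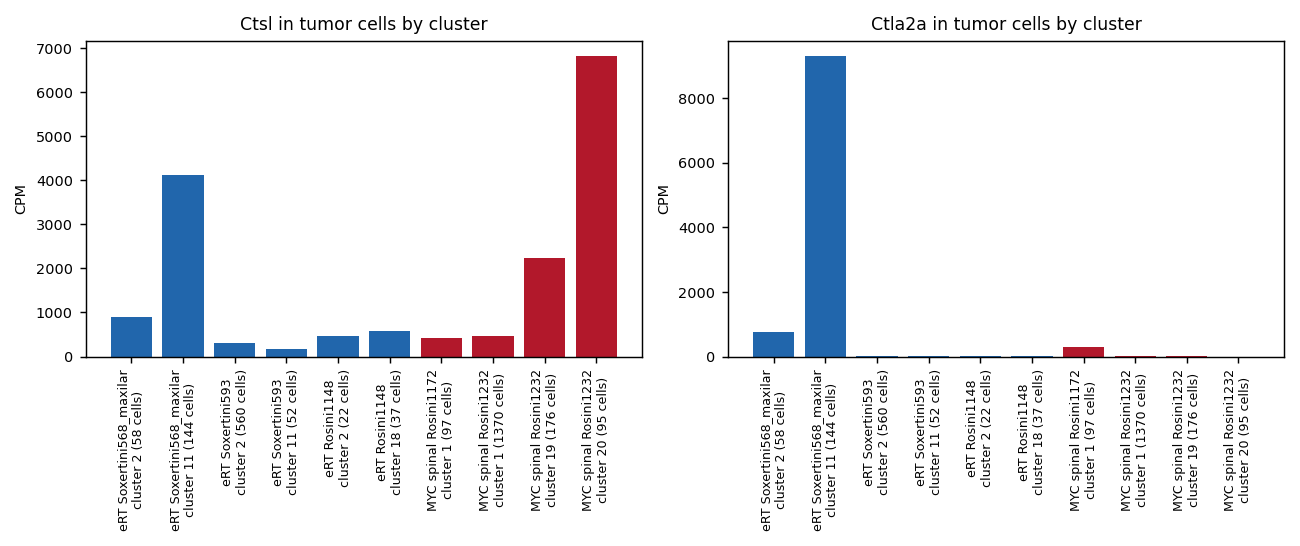
Level of *Ctsl* (left) and *Ctla2a* (right) in CPM, in tumor cell clusters with at least 20 cells in a tumor, a bar for each tumor and cluster. *Ctsl* reaches 4114 CPM in eRT Soxertini568_maxilar and 6825 CPM in MYC spinal Rosini1232, and *Ctla2a* reaches 9321 CPM in eRT Soxertini568_maxilar.

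After thinning to 1000 UMIs, 60.3% of the tumor cells of Soxertini568_maxilar held a UMI of *Ctla2a*, against at most 5.94% in the other 5 tumors. Markers of T cells (5 of 8 found) summed to 25.4 CPM in the tumor cells of Soxertini568_maxilar, and those of NK cells (2 of 7 found) to 3.17 CPM. The lymphoid cells of the same tumor held less *Ctla2a* than its tumor cells, with 359 CPM in T cell-like and 1329 CPM in NK cell-like cells. The part of lymphoid cells in the result was not tested. Endothelial markers (6 of 8 found) summed to 130 CPM in the tumor cells of Soxertini568_maxilar, with *Emcn* and *Kdr* at 0, against 5.38 to 172 CPM in the other tumors, and their part in the result was not tested. *Ctla2b* was at 72.9 CPM in the tumor cells of Soxertini568_maxilar and at most at 8.51 CPM in those of the other tumors.

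Macrophages that differentiate from monocytes gain lysosomes, and the next comparison set macrophage-like against monocyte-like cells in the 6 tumors. None of the 10 genes passed the test, and 0.259% of 7720 genes did. At an unadjusted p under 0.05, 788 genes were counted, and DESeq2 called 132 genes but none of the 10. The plot of differences within tumors shows Rosini1172 far to the right for *Ctsl*, *Ctsd* and *Ctsb*.

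*Lgmn* had the largest fitted difference here. It was at 483, 31.9 and 296 CPM in the monocyte-like cells of MYC spinal Rosini1172, Rosini1177 and Rosini1232 and at 1972, 699 and 1597 CPM in the cells of eRT Rosini1148, Soxertini568_maxilar and Soxertini593. Set against the macrophage-like values given above, it was lower in monocyte-like cells of each tumor, by little in Rosini1148 and Soxertini593. The difference was 1.48 ± 0.55 (adjusted p = 0.38), with an interval of 0.37 to 2.58. *Ctss* was at 2232, 382 and 1004 CPM and at 4269, 1438 and 3483 CPM in monocyte-like cells. Its difference of 0.99 ± 0.36 (adjusted p = 0.35) also had the same sign in 6 of 6 tumors. With every gene of at least 1 UMI tested, *Lgmn* (adjusted p = 0.00012) and *Ctss* (adjusted p = 0.0045) passed the threshold. Macrophage markers summed to 21220 and 40110 CPM in the monocyte-like cells of Rosini1148 and Soxertini593, against 397 to 6940 CPM in the other 4 tumors. Monocyte markers summed to 2499 and 1626 CPM in the same cells of Rosini1148 and Soxertini593. The macrophage markers thus exceeded the monocyte markers there, and also in Rosini1172 (6940 against 6286 CPM). In the remaining tumors the monocyte markers were the higher. The part of these markers in the result was not tested.

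*Ctsl* was the only cathepsin with a fitted difference below 0 in this comparison, at -0.43 ± 0.64 (adjusted p = 0.90). Monocyte-like cells held 42.8, 65.7 and 549 CPM in the MYC spinal group and 994, 528 and 347 CPM in eRT. The monocyte-like value was above the macrophage-like one in 4 of 6 tumors. The remaining fitted differences lay between 0.47 and 0.76 for *Ctsb*, *Ctsz*, *Ctsh*, *Ctsc*, *Ctsd* and *Cst3*, and at -1.18 for *Ctla2a*, with adjusted p of 0.39 to 0.74.

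Neutrophils store much of their proteolytic capacity as serine proteases in granules, which cathepsin C activates during their maturation. Macrophage-like cells were compared with neutrophil-like cells in the 3 tumors with at least 10 cells of both, Rosini1177, Rosini1232 and Soxertini568_maxilar. Neutrophil markers summed to 6682, 942 and 1801 CPM in the macrophage-like cells of these tumors, and their part in the result was not tested. Of the 10 genes, 5 were higher in macrophage-like cells and none was lower, where 8.95% of 4882 genes passed in either direction and 2.29% were higher. *Lgmn* was at 7.60, 110 and 56.5 CPM in the neutrophil-like cells of Rosini1177, Rosini1232 and Soxertini568_maxilar, and its difference was 3.66 ± 0.60 (adjusted p = 0.0029). *Ctsc* was at 34.2, 235 and 39.1 CPM, a difference of 2.87 ± 0.50 (adjusted p = 0.0041). For both genes no neutrophil-like value reached a macrophage-like value of these 3 tumors.

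*Ctss* was at 54.5, 424 and 196 CPM in neutrophil-like cells, and its difference was 2.56 ± 0.49 (adjusted p = 0.0072). *Ctsb* was at 70.3, 327 and 291 CPM (1.69 ± 0.43, adjusted p = 0.032) and *Ctsh* at 74.8, 170 and 91.3 CPM (1.47 ± 0.41, adjusted p = 0.045). Each was higher in macrophage-like cells in 3 of 3 tumors. *Ctsd* was at 141, 277 and 330 CPM in neutrophil-like cells. It stood below the macrophage-like value in each tumor on the CPM scale, but its fitted difference was -0.21 ± 0.40 (adjusted p = 0.78), and 0.66 without TMM factors.

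Scaling mattered here. Neutrophil markers took up 126900 to 434700 CPM of the neutrophil-like sums, and without TMM factors the median of all genes moved from -0.0045 to 0.82. In place of 112 genes higher and 325 lower in macrophage-like cells, 653 and 186 were counted then, and *Ctsl*, *Ctsz* and *Cst3* were called as well. Relative to that median, *Ctsd* lay below it. The tumor cell comparison was shifted in the same way by less, from a median of 0.06 to 0.29, with 1544 genes higher and 1607 lower in tumor cells under TMM factors and 1971 and 1277 without. The 8 calls stood under both scalings. In the neutrophil comparison 3 genes passed when Rosini1177 or Rosini1232 was left out.

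Conventional dendritic cells present antigen and are thought to limit lysosomal proteolysis. Conventional dendritic-like cells were found in the MYC spinal tumors, with 34, 173 and 185 cells in Rosini1172, Rosini1177 and Rosini1232. Against them, 6 of the 10 genes were higher in macrophage-like cells, where 5.6% of 4229 genes passed in either direction, 3.1% were higher and 2.51% lower. *Lgmn* was at 240, 69.2 and 196 CPM in conventional dendritic-like cells (3.17 ± 0.40, adjusted p = 0.00035). *Ctsd* was at 264, 37.7 and 151 CPM (3.19 ± 0.64, adjusted p = 0.0080). *Ctsl* was at 44.1, 44.0 and 65.3 CPM (2.80 ± 0.51, adjusted p = 0.0039). All 3 were higher in macrophage-like cells of every tumor, by most in Rosini1172.

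*Ctsb* was at 460, 208 and 377 CPM in these dendritic-like cells (2.54 ± 0.44, adjusted p = 0.0029) and *Ctsc* at 480, 138 and 437 CPM (1.79 ± 0.27, adjusted p = 0.0011). *Ctss* was at 2599, 371 and 1314 CPM, and its difference of 1.65 ± 0.33 (adjusted p = 0.0075) was lost without Rosini1172 (adjusted p = 0.12), as was that of *Ctsd* (adjusted p = 0.051). *Ctsh* was at 744, 377 and 502 CPM and its difference of 0.57 ± 0.33 did not pass (adjusted p = 0.46).

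*Cst3* went the other way and was lower in macrophage-like than in conventional dendritic-like cells. The dendritic-like cells held 21240, 10540 and 7581 CPM, above the macrophage-like value of the same tumor in 3 of 3. The difference was -1.50 ± 0.21 (adjusted p = 0.00056), and it was lost without Rosini1177 (adjusted p = 0.087). A dendritic cluster of the eRT, whose markers were tied between dendritic types, had 8351 CPM of *Cst3* in Soxertini568_maxilar and 15040 CPM in Soxertini593. With this cluster counted as conventional dendritic-like, 8 of the 10 genes passed. The number of all genes called in this comparison also changed between settings, and their share in this setting is not given here. The count of 8 is therefore not particular to the 10 genes.

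Mature dendritic-like cells, which migrate to lymph nodes, had the highest median of *Cst3*, at 15670 and 15460 CPM in MYC spinal Rosini1177 and Rosini1232 and 22200 and 28560 CPM in eRT Soxertini568_maxilar and Soxertini593. The ranges of mature and conventional dendritic-like cells overlapped, while both lay apart from the osteoclast-like range of 2734 to 3935 CPM. The conventional dendritic-like range also overlapped with that of macrophage-like cells, which reached 9361 CPM in Rosini1172. Mature dendritic-like cells also had the highest median of *Ctsh*, with 672 to 1094 CPM, overlapping with macrophage-like cells. They held little *Ctsl*, with 0 to 66.9 CPM, and of *Ctsd* 0 to 164 CPM. Those sums rest on 10 to 47 cells per tumor.

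Osteoclast-like cells were numerous in MYC spinal Rosini1232 and eRT Rosini1148, with 1493 and 531 cells, and were scarce in Soxertini593 with 10. They held 9119, 13750 and 7590 CPM of *Ctsk*, the collagenase of bone resorption, which is not among the 10 genes. *Ctsz* was at 1192, 1195 and 676 CPM in them, overlapping with macrophage-like cells. *Ctsc* was at 43.8, 130 and 135 CPM and *Ctsh* at 58.5, 48.7 and 135 CPM, both below the macrophage-like values of the same tumors. *Cst3* was at 2734, 3935 and 3852 CPM.

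In lymphoid cells *Ctla2a* and *Ctsd* stood out. NK cell-like cells had the highest median of *Ctla2a*, at 756, 522 and 930 CPM in the MYC spinal group and 1182, 1329 and 1497 CPM in eRT. T cell-like cells followed with 628, 197 and 269 CPM and 522, 359 and 223 CPM, and the NK cell-like value was the higher in each tumor. The T cell-like range lay above that of the conventional dendritic-like cells next in order, and the other kinds overlapped with one another down to osteoclast-like cells, at no more than 3.01 CPM. *Ctsd* in NK cell-like cells was at 606, 174 and 500 CPM and 783, 561 and 632 CPM, overlapping with macrophage-like cells. This was 6.21%, 83.0% and 117.6% of the macrophage-like level of the same tumor in the MYC spinal group. In eRT it was 108.5%, 103.8% and 157.7%. In both lymphoid kinds *Ctsl* stood at most at 33.0 CPM except in Rosini1232, where it was at 248 CPM in T cell-like and 290 CPM in NK cell-like cells. *Ctsk*, an osteoclast gene, was at 576 and 895 CPM in the same cells of Rosini1232 and at 343 and 309.5 CPM in those of Rosini1148, and its part in these values was not tested.

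Macrophage-like cells were not uniform. The MYC spinal macrophage-like cells formed 1 cluster, led by *Apoe*, *Ccl12* and *C1qa*, and those of the eRT 3 clusters. In the eRT, the cluster led by *Fcrls*, *Mrc1* and *Folr2* held 1319, 1025 and 821 CPM of *Ctsd* in Rosini1148, Soxertini568_maxilar and Soxertini593, and the cluster led by *H2-Eb1* and *Cd74* held 589, 240 and 213 CPM. *Lgmn* was at 3480, 2408 and 2357 CPM in the first and 1866, 530 and 1289 CPM in the second. *Ctsb* (4025, 2882 and 1933 against 1762, 596 and 1080 CPM) and *Ctsl* (738, 759 and 166 against 310, 171 and 76.7 CPM) showed the same order in each tumor. *Ctsh* had the same order in each tumor but lay closer together, with 867, 705 and 1016 against 855, 683 and 873 CPM. As the clusters come from the same cells, these values are a description without a test.

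In MYC spinal Rosini1172, macrophage-like cells had 9766 CPM of *Ctsd* and 7546 CPM of *Ctsb*, whereas no other tumor exceeded 722 and 2213 CPM. The same cells exceeded all other tumors for *Ctss*, *Ctsz*, *Ctsh*, *Ctsl*, *Lgmn* and *Cst3*, but not for *Ctsc*, which was highest in eRT Rosini1148. The 38 monocyte-like cells of Rosini1172 did not show this, with 544 CPM of *Ctsd* and 911 CPM of *Ctsb*. They also held T cell markers at a summed 1957 CPM (6 of 8 found), against 10.1 to 82.5 CPM in the monocyte-like cells of the other tumors. The microglia markers named above were also highest in Rosini1172. They came next in Soxertini593 at 888 CPM, whose *Ctsd* and *Ctsb* lay below those of Rosini1148, with 215 CPM of these markers. The part of both marker lists in the result was not tested.

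Subtypes were compared next, eRT against MYC spinal, in each kind of cell. No gene of the 10 passed in tumor cells, macrophage-like cells or monocyte-like cells. Over all genes 0% of 5735 passed in tumor cells, 0% of 7672 in macrophage-like cells and 0.641% of 5776 in monocyte-like cells. At an unadjusted p under 0.05, 203, 179 and 641 genes were counted, and DESeq2 called 22, 4 and 164 genes, of the 10 none, none and *Lgmn*. Neutrophil-like cells reached 10 cells in 1 eRT only, so that this comparison was not fitted.

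In tumor cells, 3 genes did not overlap between the subtypes, each with eRT above MYC spinal, where 9.15% of all 5735 genes did not overlap in either direction and 1.66% with eRT above. *Ctsz* was at 82.6, 22.0 and 97.2 CPM in the MYC spinal group and at 330, 160 and 308 CPM in eRT. *Ctsc* was at 19.7, 44.0 and 28.9 CPM and at 59.6, 61.8 and 84.4 CPM, and *Lgmn* at 35.9, 66.0 and 49.0 CPM and at 117, 68.1 and 99.6 CPM. *Lgmn* was narrowly apart, and the values of Rosini1177 rest on 1 UMI of *Ctsz*, 2 of *Ctsc* and 3 of *Lgmn*. The fitted difference of *Ctsz* was 2.06 ± 0.48 with an interval of 1.10 to 3.03 (adjusted p = 0.81). Those of *Ctsc* (1.65 ± 0.46) and *Lgmn* (1.28 ± 0.41) had adjusted p of 1.0. C1q genes moved with them in part, at 73.6, 0 and 171 CPM in the MYC spinal group and 445, 135 and 553 CPM in eRT tumor cells, and so did macrophage markers (12 in all, 1 to 12 found, 22.0 to 652 CPM against 569 to 2114 CPM). Their part in the result was not tested.

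*Ctla2a* gave the largest fitted difference in tumor cells, 4.22 ± 2.35 (adjusted p = 1.0), and turned to -3.75 without Soxertini568_maxilar. *Ctsl* turned from 1.33 to -0.43 without the same tumor. In macrophage-like cells, *Ctsd* was at -2.66 ± 1.198 (adjusted p = 1.0) and turned to 0.81 without Rosini1172, as the plot of subtype differences shows. In these cells the subtypes overlapped for each of the 10 genes, where 6.06% of all 7672 genes did not overlap in either direction and 3.43% with eRT above. There 9 of the 10 fitted differences were below 0 with all tumors and all were above 0 without Rosini1172, none past the threshold.

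**Figure D5:**
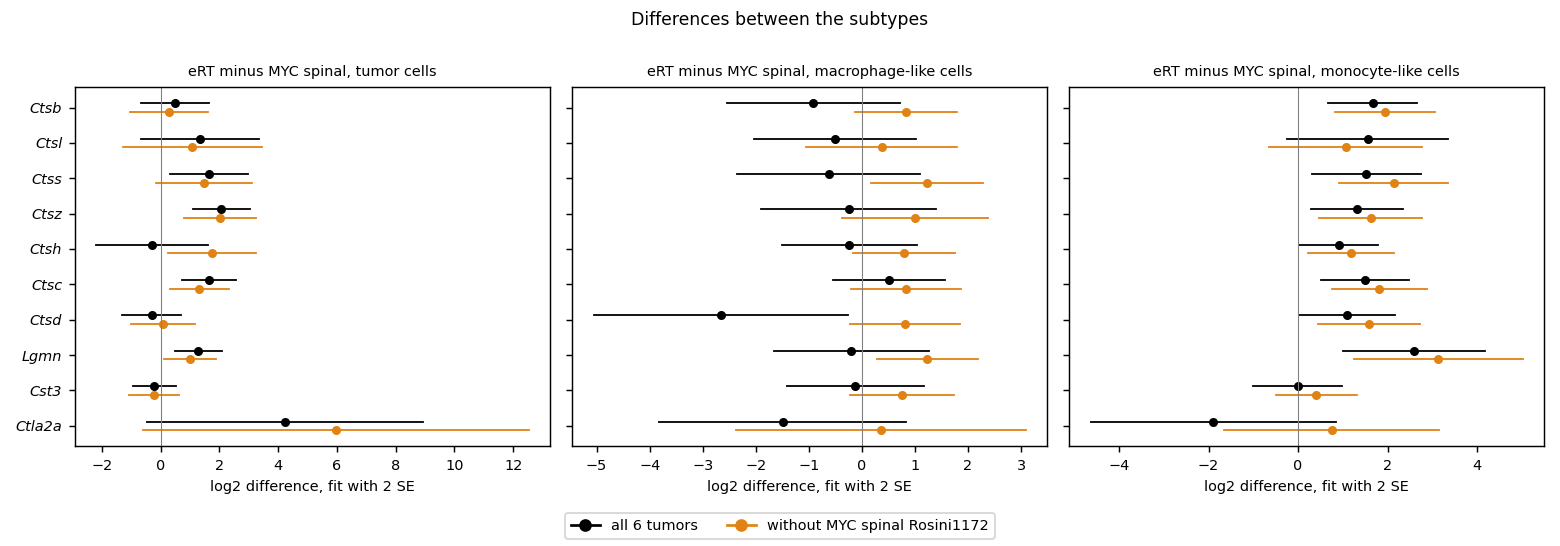
Fitted log2 differences of eRT minus MYC spinal in tumor, macrophage-like and monocyte-like cells with 2 standard errors, over all 6 tumors (black) and without MYC spinal Rosini1172 (orange). In macrophage-like cells *Ctsd* moves from -2.66 to 0.81 and *Ctsb* from -0.92 to 0.83.

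In monocyte-like cells *Ctsb* and *Lgmn* did not overlap, again with eRT above, where 15.6% of all 5776 genes did not overlap in either direction and 5.16% with eRT above. *Ctsb* was at 911, 270 and 641 CPM in the MYC spinal group and 2594, 1071 and 1545 CPM in eRT, a difference of 1.67 ± 0.50 (adjusted p = 0.25). *Lgmn*, with the values given above, had a difference of 2.59 ± 0.80 and an interval of 0.99 to 4.19 (adjusted p = 0.26). It passed with DESeq2 (adjusted p = 0.026) and with every gene tested (adjusted p = 0.025). The macrophage markers of these cells, all 12 found in each eRT, were at 4970 to 40110 CPM in eRT and 397 to 6940 CPM in MYC spinal. Neutrophil markers summed to 67.3, 12960 and 4297 CPM in the monocyte-like cells of MYC spinal Rosini1172, Rosini1177 and Rosini1232, above the monocyte markers in the latter 2 (8673 and 3130 CPM), and to 609, 3064 and 129 CPM in eRT. The part of either in the result was not tested.

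Whether the gap between tumor cells and macrophage-like cells itself differed between the subtypes was tested as an interaction. No gene of 8208 passed (0%), with 348 at an unadjusted p under 0.05 and 12 called by DESeq2, none of them among the 10. The difference for *Ctsz* was 2.28 ± 0.69 (adjusted p = 0.72), that is, a gap smaller in eRT by the point estimate, and for *Ctss* it was 2.00 ± 0.99 (adjusted p = 1.0). Without Rosini1172 the values were 1.25 for *Ctsz* and 0.39 for *Ctss*.

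The surrounding pathway was described with 93 other genes in 5 lists: other lysosomal proteases, other inhibitors of cysteine proteases, other hydrolases, lysosomal membrane and acidification, and sorting and transcription factors. Between tumor and macrophage-like cells 63 of them could be tested and 43 passed, 38 lower and 5 higher in tumor cells, with a median of -1.17 against 0.06 for all genes. Of all 8208 genes tested there, 38.4% passed in either direction and 19.6% were lower in tumor cells. Of other lysosomal proteases 6 of 11 were lower, such as *Napsa*, the gene of the aspartic protease napsin A, at 0 to 10.6 CPM in tumor cells and 54.6 to 403 CPM in macrophage-like cells (-5.66 ± 0.32, adjusted p = 2.5e-06). Of other hydrolases 14 of 23 were lower and 2 higher. *Gusb*, which codes for beta-glucuronidase, was at 14.3 to 44.0 against 152 to 572 CPM (-3.45 ± 0.28, adjusted p = 6.7e-06).

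Of genes for the lysosomal membrane and acidification 10 of 14 were lower, among them the proton pump subunit gene *Atp6v1b2* (-1.71 ± 0.26, adjusted p = 0.00034). Of sorting and transcription factors 6 of 10 were lower and 1 higher, with prosaposin, *Psap*, at 325 to 794 against 1365 to 5315 CPM (-2.59 ± 0.35, adjusted p = 0.00017). Genes listed as other inhibitors of cysteine proteases were split, with 2 of 5 lower and 2 higher. *Serpinb6a*, the gene of an intracellular serpin, was higher in tumor cells, at 221 to 631 against 19.0 to 53.6 CPM (3.13 ± 0.33, adjusted p = 3.2e-05). Whether this serpin acts on cysteine proteases was not examined here.

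Against neutrophil-like cells 9 of 49 passed, 5 higher and 4 lower in macrophage-like cells. Of all 4882 genes tested, 8.95% passed in either direction and 2.29% were higher. The 4 lower ones were all inhibitors, of 7 tested. They included the stefin A genes *Stfa1* (-7.61 ± 0.66, adjusted p = 8.7e-05) and *Stfa2l1* (-7.56 ± 0.64, adjusted p = 8.7e-05), at 86.8 to 230 and 75.9 to 1070 CPM in neutrophil-like cells and at most 1.80 and 9.01 CPM in macrophage-like cells. These genes form a family of near-identical copies, so that the split of reads between them is uncertain. Against conventional dendritic-like cells 12 of 44 passed, 9 higher and 3 lower in macrophage-like cells. Of all 4229 genes tested, 5.6% passed in either direction, with 3.1% higher and 2.51% lower. *Cd63*, a tetraspanin of lysosomal membranes, was at 171 to 2468 against 12.6 to 261 CPM (3.66 ± 0.53, adjusted p = 0.00079), and *Napsa* was lower at 81.7 to 289 against 226 to 793 CPM (-1.67 ± 0.42, adjusted p = 0.033). Between macrophage-like and monocyte-like cells 0 of 62 passed, and between the subtypes 0 of 47 in tumor cells, 0 of 63 in macrophage-like cells and 0 of 56 in monocyte-like cells. The shares of all genes that passed were 0.259%, 0%, 0% and 0.641% in the same order.

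Lysosomal genes are known targets of transcription factors of the TFEB family, which bind E-boxes with the letters CACGTG. These letters were searched in windows of 250 bases before to 50 after each start site in RefSeq (GRCm38.p6), where 8 of the 10 genes had an entry. The palindromic motif, which reads alike on both strands, was found in 2 of the 8, *Ctsl* and *Ctsd*, and in 7.15% of all 32851 windows. The longer TCACGTGA occurred in 0.974% of windows, with *Ctsd* the member that held it in this window. The matches of *Ctsd*, on the minus strand of chromosome 7, are shown for the cathepsin whose macrophage-like level had the largest ratio of highest to lowest tumor, with the E-box in capitals.
Ctsd, chr7:142388048-142388077, E-box beginning 245 bases before the start site: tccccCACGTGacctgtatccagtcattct
Ctsd, chr7:142387908-142387937, E-box beginning 98 bases before the start site: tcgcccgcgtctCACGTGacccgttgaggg
The second stretch lies within the longer gene model of the GENCODE annotation. A match of letters is a description and no measurement of binding.

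In that annotation (GRCm38), *Ctsd* spans chr7:142375911-142388038 and *Ctsl* chr13:64359337-64370890, both on the minus strand, and *Ctla2a* lies on the same chromosome as *Ctsl* at chr13:60934155-60936625. *Ctss* spans chr3:95526786-95556403 and *Lgmn* chr12:102394084-102439813. *Ctsb* (chr14:63122462-63145923) overlaps *Fdft1* and *Ctsz* (chr2:174427493-174439039) overlaps *Nelfcd*, both on the opposite strand, while *Cst3* (chr2:148871722-148875692) and *Ctsh* (chr9:90054152-90076089) overlap no other gene there. *Ctsc* is at chr7:88278085-88310888.

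Genes whose levels ran alike were named over 43 sums of a tumor and kind of cell with at least 50000 UMIs, among 2562 genes with a mean of at least 50 CPM, by Pearson's r of log2(CPM + 10). The sums share tumors and libraries, so r is a description. The genes closest to *Lgmn* were *C3ar1* (r = 0.925), *C1qb* (0.908) and *Ms4a7* (0.904), and to *Ctss* they were *Ctsc* (0.904), *Ms4a6d* (0.902) and *Lgmn* (0.885). *Ctsb* ran closest with *Grn* (0.899), the progranulin gene, and *Ctsz* with *Lgmn* (0.866). The order for *Ctsh* was led by *Pld4* (0.904), *Cd74* (0.869) and *H2-Aa* (0.864), the latter both of the MHC class II pathway. *Cst3* was closest to *Atox1* (0.864), *Ctsd* to *Spp1* (0.769) and *Ctsl* to *Hmox1* (0.81). *Ctla2a* was closest to *Thy1* (0.83), a surface marker of T cells, and *Ctsc* to *Ctss*.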

How the data were processed

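The authors prepared 10x Genomics 3′ v2 libraries from 3 MYC spinal tumors and 3 eRT, 1 library per animal. The submitters' processing notes name Cell Ranger 2.0.2 and mm10. The deposited tables hold raw counts of UMIs by gene and cell, not normalized. The number of per-sample columns left unused is 0. Samples were grouped by source name. The 10 genes and all lists were chosen with earlier results of these data known.

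Cells entered with 200 genes or more and a mitochondrial share of UMIs up to 25%. Seurat 5.3.0 integrated the tumors within a subtype (2000 variable genes, 30 dimensions, resolution 0.8), leaving out the 10 genes and the 93 list genes. Clusters were named for a cell type by 3 or more of its markers, each in 10% of cells or more and with a log2 fold of 1 or more. Tumor clusters had *Smarcb1* UMIs under 0.25 of those expected. Clusters without a name were not compared. Scrublet flagged as doublets only 21 cells (0.0948%), and none was taken out. Whether it found the doublets of these data was not tested, so doublets may remain.

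UMIs were summed per tumor and kind of cell and scaled to CPM for description. Tests used edgeR 4.0.16 (TMM factors, filterByExpr, quasi-likelihood test, Benjamini-Hochberg at 0.05) in R 4.3.3, with the tumor as a block within animals, since kinds of cells come from the same animal, and no block between subtypes. Intervals are the estimate with 2 standard errors. p-values cover the spread between tumors, given kinds of cells drawn from the same data. A count of 0 is given with the level of 3 counts, which covers counting error only. The fits were tested on simulated data with known changes. Alternatives were DESeq2 1.42.0, library sizes without TMM factors, every gene with at least 1 UMI, stricter cell filters (500 genes, 10%), removal of the 843 highest doublet scores, resolutions 0.4 and 1.6, *Smarcb1* limits of 0.15 and 0.5, mouse model as a covariate, no block and each tumor left out. A setting with a tied eRT dendritic cluster and one without a mitotic macrophage-like cluster were added after seeing the data. Other list genes are named when past the threshold, changed alike in every tumor and with a mean of at least 50 CPM, up to 3 per list by size of change. Gene positions are from GENCODE M21. A withheld item that this rule would name is not reported here.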

Additional observations from a re-analysis of the deposited data

Results flagged for a closer look

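The differences of the 10 genes between kinds of cells were examined for single tumors far from the other 5 in the comparisons with 6 tumors, as log2(CPM + 10). Of 20 groups of 6 differences 5 held such a tumor, where chance gives about 1 in 20 groups if they are independent. They are not, since all use the same tumors and both comparisons use the same macrophage-like sums.

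In 4 of the 5 the tumor was MYC spinal Rosini1172. Its difference between tumor and macrophage-like cells was -4.51 for *Ctsb*, against -2.23 to -0.94 in the other tumors, and -6.56 for *Lgmn*, against -4.08 to -3.15. Its difference between macrophage-like and monocyte-like cells was 3.95 for *Ctsl*, against -1.67 to 0.19, and 4.14 for *Ctsd*, against -0.30 to 0.85. The remaining case was eRT Soxertini568_maxilar, where *Ctla2a* differed by 6.06 between tumor and macrophage-like cells, against -0.16 to 1.31 in the other tumors.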

How the results depend on the processing

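Between tumor and macrophage-like cells, the number of the 10 genes called ranged from 7 to 9 when each tumor was left out. The number of all genes called also moved between settings, as described below, so the counts in this paragraph are not particular to the 10 genes. Against monocyte-like cells, 2 genes were called with every gene tested, and *Ctsc* turned to -0.033 at resolution 0.4. Against neutrophil-like cells, 8 genes were called without TMM factors, 0 without the block by tumor, and 3 to 5 when a tumor was left out, 3 of them without Rosini1177 or without Rosini1232. *Ctsd* turned to 0.66 and *Ctla2a* to 0.38 without TMM factors, and *Ctsd* to 0.18 with stricter cell filters. Against conventional dendritic-like cells, 0 genes were called without the block, 6 to 8 when a tumor was left out, and *Ctla2a* ranged from -3.38 to 1.11 then. Resolution 0.4 gave no such comparison. In the subtype comparison of monocyte-like cells 1 gene, *Lgmn*, was called by DESeq2 and 1 with every gene tested. The kinds of cells of an animal are paired by the animal, which the block uses. No paired analysis was possible because the subtypes come from different animals for the subtype comparisons.

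The subtype differences turned most often, none of them past the threshold before or after. In tumor cells, *Ctsl* turned to -0.18 and *Ctla2a* to -3.41 with mouse model as a covariate, and *Cst3* to 0.00050 with stricter cell filters. In macrophage-like cells, resolution 0.4 gave 0.096 for *Ctsl*, 0.14 for *Ctsz*, 0.018 for *Ctsh* and 0.44 for *Lgmn*, mouse model as a covariate gave 0.21 for *Ctsz* and 0.064 for *Lgmn*, and stricter cell filters gave 0.016 for *Cst3*. In monocyte-like cells, *Cst3* was at 0.0098 with DESeq2, 0.084 with every gene tested, 0.039 with stricter cell filters and 0.38 at resolution 0.4, where *Ctla2a* was at 0.37. In the interaction, resolution 0.4 gave -0.042 for *Ctsd* and 0.53 for *Cst3*, and resolution 1.6 gave 0.036 for *Cst3*. The cause was not tested.

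With each tumor left out in turn, the tumor cell differences between subtypes ranged from -0.43 to 2.31 for *Ctsl*, -0.77 to 1.74 for *Ctsh*, -0.63 to 0.077 for *Ctsd* and -3.75 to 5.95 for *Ctla2a*. The macrophage-like differences ranged from -1.41 to 0.83 for *Ctsb*, -0.99 to 0.37 for *Ctsl*, -1.12 to 1.23 for *Ctss*, -0.78 to 1.003 for *Ctsz*, -0.64 to 0.80 for *Ctsh*, -3.22 to 0.81 for *Ctsd*, -0.64 to 1.23 for *Lgmn*, -0.53 to 0.76 for *Cst3* and -3.23 to 0.36 for *Ctla2a*. The monocyte-like differences ranged from -0.32 to 0.41 for *Cst3* and -3.70 to 0.75 for *Ctla2a*. The interaction ranged from -0.37 to 2.11 for *Ctsb*, 1.25 to 3.25 for *Ctsz*, -0.73 to 2.03 for *Ctsd*, -0.11 to 2.23 for *Lgmn*, -0.88 to 0.10 for *Cst3* and -0.41 to 4.47 for *Ctla2a*.

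Counts over all genes moved as well. Against macrophage-like cells 3151 genes of tumor cells fell to 1560 without the block. The 20 genes of the monocyte comparison ranged from 0 to 326 over the alternatives, the 437 of the neutrophil comparison from 39 to 839, the 237 of the dendritic comparison from 0 to 553 and the 37 of the monocyte-like subtype comparison from 0 to 296. In the interaction, 118 genes were called with every gene tested. Without TMM factors the median of all genes moved from 0.05 to -0.27 in the tumor cell subtype comparison, from 0.03 to -0.23 in the interaction and from -0.03 to -0.15 in monocyte-like cells. Depth limits the tumor cells of Rosini1177 most, where 3 UMIs are 66.0 CPM.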

Other observations

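Clusters that stayed without a name also held the genes. A cluster led by *Fabp5* and *Lpl*, with 1345 cells of MYC spinal Rosini1232, held 815 CPM of *Ctss*, 491 CPM of *Ctsb*, 210 CPM of *Lgmn* and 1857 CPM of *Cst3*, each below the macrophage-like value of that tumor. A cluster led by *Arg1* and *Lpl* with 364 cells of eRT Rosini1148 held 1780 CPM of *Ctss*, 766 CPM of *Lgmn* and 670 CPM of *Ctsl*, the last above the 400 CPM of that tumor's macrophage-like cells. *Ctsk* was at 1185 and 1024 CPM in these 2 clusters.

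The 191 plasmacytoid dendritic-like cells of MYC spinal Rosini1177 held 721 CPM of *Ctsb*, 484 CPM of *Ctsh* and 270 CPM of *Ctsl*, and the last exceeded the 76.2 CPM of its macrophage-like cells. A cluster of 335 cells in the same tumor, led by the mast cell protease genes *Mcpt8* and *Prss34*, held 446 CPM of *Ctla2a*, which neutrophil-like and monocyte-like cells of that tumor held at 9.50 and 4.48 CPM. The 72 fibroblast-like cells of eRT Soxertini593 held 832 CPM of *Ctsb*, 622 CPM of *Ctsc* and 304 CPM of *Ctla2a*, against 348, 84.4 and 6.55 CPM in its tumor cells. UMIs of *Ctla2a* were found in 2.78% of these fibroblast-like cells. *Ctsw*, which codes for a cathepsin of cytotoxic lymphocytes, was at 152 to 1231 CPM in NK cell-like cells of the 6 tumors and at no more than 12.3 CPM in macrophage-like cells.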
